A study of Mus musculus with 19 samples.

Results

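Marrow stem and progenitor cells of leukemic mice that had received AG-221, an inhibitor of mutant IDH2, were compared with the same sorted population of wild-type mice, to describe what still differed from wild type under the drug. The comparison used 8 of the 19 RNA libraries of the study, 4 labelled AG-221 and 4 labelled WT, chosen by their column headers, and 11830 of the 33862 accessions of the count table passed the low-count filter and entered the test. The cells were lin-Sca+cKit+ (LSK) cells of C57BL/6 mice, sorted and not cultured, and the RNA was sequenced after polyA selection and low-input amplification. The AG-221 group had the genotype Idh2 R140Q;Flt3-ITD, which is a point mutation of the mitochondrial isocitrate dehydrogenase together with an internal tandem duplication of the receptor kinase FLT3. Per the series text these mice had acute myeloid leukemia. They were gavaged 2 times daily for 4 to 5 weeks, with 100 mg/kg as a single agent or 40 mg/kg in a combination study, and the labels do not give the dose of each library. WT mice had no treatment, so genotype, leukemia and drug differ together between the groups and their parts cannot be told apart. Values of 3 vehicle-treated Idh2 R140Q;Flt3-ITD libraries (IDH2-FLT3 vehicle) are set beside them. The labels do not state ages, the driver of the alleles, or that each library came from its own animal, so p-values measure the spread between libraries, which may be technical.

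Mutant IDH2 makes the metabolite 2-hydroxyglutarate, which inhibits the TET enzymes that oxidise DNA methylation, and AG-221 blocks that production. FLT3-ITD signals without ligand, through STAT5 and the MAP kinase pathway among others, and AG-221 does not act on it. The LSK compartment holds stem cells, multipotent progenitors and lymphoid-primed progenitors that already transcribe genes of several blood lineages at low level.

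The AG-221 libraries held 9913084 to 11988449 assigned counts and the WT libraries 10176915 to 12253599. Levels are CPM, counts scaled to library size with TMM factors, log2 differences are edgeR's estimates ± standard error, and a gene was called where its edgeR quasi-likelihood p, adjusted by Benjamini-Hochberg over 11830 accessions, was under 0.05. Log2 CPM profiles correlated at 0.964 to 0.983 within WT, 0.931 to 0.967 within AG-221 and 0.908 to 0.956 between them, as a description over accessions. The engineered genes could not be checked from counts, since neither allele deletes a transcript. Idh2 read 273, 123, 204 and 154 CPM with AG-221 and 187, 203, 191 and 132 CPM in WT (log2 difference 0.08 ± 0.36, adjusted p = 0.963), and Flt3 read 353, 234, 239 and 404 and 328, 303, 534 and 465 CPM (log2 difference -0.41 ± 0.41, adjusted p = 0.761). The gate genes Kit and Ly6a had at most 0.151 CPM in any of the 11 libraries. Both have several accessions, and among accessions of such genes 61.6% were at 0 in all libraries, compared with 18.9% elsewhere, so these 2 markers do not test the sort. AG13 stood apart from the other AG-221 libraries in monocyte, dendritic and MHC class II genes. Among the vehicle libraries V9 was highest for dendritic and MHC class II genes, and V3 and V3-2 share a name.

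Between AG-221 and WT, 321 genes were called, 2.71% of those tested, with 123 higher (1.04%) and 198 lower (1.67%). Between IDH2-FLT3 vehicle and WT, which share the WT libraries with this comparison, 2428 were called, or 20.5% (10.1% higher and 10.4% lower). The median size of a log2 difference over all accessions was 0.34 with AG-221 and 0.65 with vehicle. The difference between AG-221 and vehicle was called for 1145 genes (9.68%, with 4.39% higher and 5.29% lower), a count that rested on the vehicle libraries V3 and V3-2, as it was 97 and 110 without them and 0 in a fit of those 2 groups alone, where 2768 genes had an unadjusted p under 0.05. The AG-221 and WT libraries did not overlap for 15.8% of accessions, those of vehicle and WT for 37.1% and those of AG-221 and vehicle for 23.8%. Of the genes called against WT, early B-cell genes made up the list with the highest share of members called, among the 34 lists examined. The AG-221 count was 189 without wt1, 170 without wt3 and 179 without wt4. From FPKM the balance leaned further to lower genes, with 16.9% of 655 calls higher on log2(FPKM + 1), where the median of all genes was -0.12, against 38.3% from counts.

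**Figure D1:**
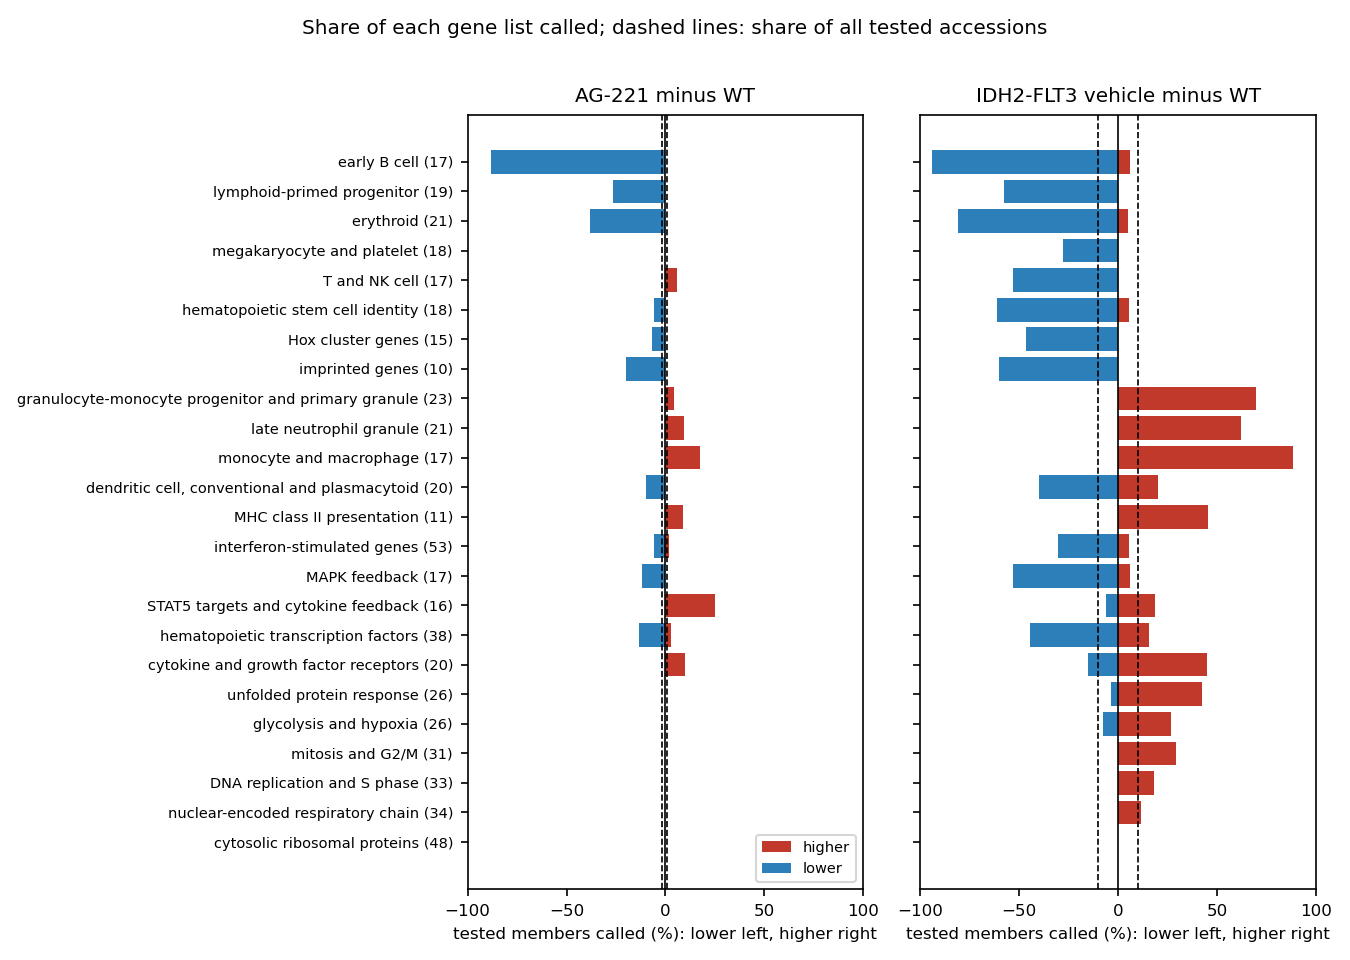
Share of the tested members of 24 gene lists called higher (red, right) or lower (blue, left), in percent, for AG-221 minus WT (left panel) and IDH2-FLT3 vehicle minus WT (right panel), with the number of tested members in parentheses. Dashed lines mark the shares of all 11830 accessions, 1.04% and 1.67% in the left panel and 10.1% and 10.4% in the right; early B-cell genes reach far past them in both panels.

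Genes of the B-cell lineage were far lower in AG-221-treated cells than in WT. Of 17 early B-cell genes tested, of 23 listed, 15 fell, 0 rose and 2 did not pass, with a list median of -4.41, against 1.67% of all accessions lower and a median of 0.0083. The count was 14 or 15 without any single library. With vehicle 16 fell and 1 rose, against 10.4% and 10.1% of all accessions. The vehicle median was -6.22 (-5.25 with Pax5, at 0 counts there, set to its bound). In bulk RNA, fewer cells of a type and less RNA per cell cannot be told apart.

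Vpreb3, a pre-B-cell receptor component, read 53.1, 49.8, 106 and 61.5 CPM in WT and 0, 0.154, 0.505 and 0 CPM with AG-221 (log2 difference -8.52 ± 0.89, adjusted p = 1.31e-05). Every WT library lay far above every AG-221 library. Igll1, the lambda5 surrogate light chain of the pre-B-cell receptor, read 97.2, 82.3, 162 and 186 CPM in WT and 0.403, 0.07699, 1.01 and 0.684 CPM with AG-221 (log2 difference -7.91 ± 1.15, adjusted p = 4.30e-04). Cd79a, the signaling chain of the B-cell receptor, read 84.5, 73.4, 78.4 and 59.4 CPM against 0.403, 0.7699, 2.78 and 0.195 CPM (log2 difference -6.12 ± 0.75, adjusted p = 7.99e-05), with AG12 the highest of the treated libraries. The groups again did not overlap. Vehicle levels were 0.253, 0.433 and 0.321 CPM for Vpreb3, 2.78, 1.15 and 1.44 CPM for Igll1 and 0.337, 0.144 and 0.641 CPM for Cd79a, and the difference between AG-221 and vehicle did not pass for any of them (adjusted p = 0.531, 0.2997 and 0.219).

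The promoter of Igll1 is shown because it holds the core letters bound by the early B-cell factor EBF, CCCNNGGG, in capitals (RefSeq, chr16:16863936-16864235 of GRCm38.p6, minus strand, 250 bases before to 50 after the start).
Igll1: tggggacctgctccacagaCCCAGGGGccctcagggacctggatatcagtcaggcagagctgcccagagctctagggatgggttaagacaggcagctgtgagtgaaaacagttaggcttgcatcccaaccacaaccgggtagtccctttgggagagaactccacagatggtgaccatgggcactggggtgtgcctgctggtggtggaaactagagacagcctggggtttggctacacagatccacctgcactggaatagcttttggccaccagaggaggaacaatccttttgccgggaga
These letters occur in 13.7% of 32851 such windows and in 2 of the 12 tested B-cell genes that have one, searched on both strands. Here and for the other promoters shown, the share is over single windows, while a gene counted if any of its windows held the letters. Of the 15 genes that fell 11 have a window, and 2 of these, Bank1 and Igll1, hold the letters.

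Rag1 and Rag2 encode the recombinase that assembles antigen receptors. Rag1 had 3 counts in all 4 AG-221 libraries and 628 in WT, a WT level 185 times the treated one (95% exact interval 63.2 to 902, counting error only; adjusted p = 0.00251). Rag2 went from 13.1 ± 4.56 to 1.12 ± 0.682 CPM (SD, n = 4; log2 difference -3.53 ± 0.58, adjusted p = 0.00141). The B-lineage transcription factor Pax5 had 128 counts in WT and 1 with AG-221, a ratio of 113 (19.997 to 4515; adjusted p = 0.00176). Ms4a1, the CD20 antigen, fell from 32.7 ± 7.01 to 0.331 ± 0.356 CPM (log2 difference -6.58 ± 1.14, adjusted p = 0.00226) and the B-cell adaptor gene Blnk from 34.2 ± 7.15 to 1.57 ± 0.671 CPM (log2 difference -4.43 ± 0.57, adjusted p = 1.10e-04). Summed over 9 lineage-depletion antigens, 7 of them tested, the level was 109 to 127 CPM in WT and 5.34 to 29.7 CPM with AG-221. Of the 7 antigens, 1 was called lower with AG-221 and 5 with vehicle, against 1.67% and 10.4% of all accessions. The part of a few mature B cells in the WT sort was not tested. Cd74 and Dntt were the 2 members of the early B-cell list that did not pass (log2 difference 1.96 ± 0.97, adjusted p = 0.409 and log2 difference -1.05 ± 0.81, adjusted p = 0.666), and both have several accessions.

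Of 19 tested lymphoid-primed progenitor genes 5 fell and 0 rose, against 1.67% and 1.04% of all accessions. The list median was -1.19, and 4 or 5 fell without any single library. Igll1, Rag1 and Rag2 stand in this list as well as in the B-cell list. The other 2 were chosen after their values were seen. They were Cecr2, a chromatin remodelling gene, from 13.2 ± 8.04 to 0.593 ± 0.575 CPM (log2 difference -4.42 ± 0.82, adjusted p = 0.00374), and the receptor gene Notch1, which directs T-cell fate, from 213 ± 39.9 to 84.2 ± 16.7 CPM (log2 difference -1.34 ± 0.29, adjusted p = 0.0113). With vehicle 11 of the 19 fell (median -2.52), against 10.4% of all accessions lower. T and NK cell genes had a median of -0.12 with AG-221 and -2.71 with vehicle, where 9 of 17 fell. With AG-221 0 fell and 1 rose in edgeR, 3 were lower at an unadjusted p under 0.05, and DESeq2 called 4. That gene was Thy1, a surface glycoprotein of T cells and early progenitors, at 139, 39.3, 54.6 and 66.04 CPM against 15.3, 8.91, 8.59 and 9.67 CPM in WT (log2 difference 2.81 ± 0.58, adjusted p = 0.00888). AG1 was highest for Thy1 and lowest in the T and NK list, with a list median -1.36 on the log2 scale relative to the WT mean against -0.21 to 0.03 in the other 3.

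**Figure D2:**
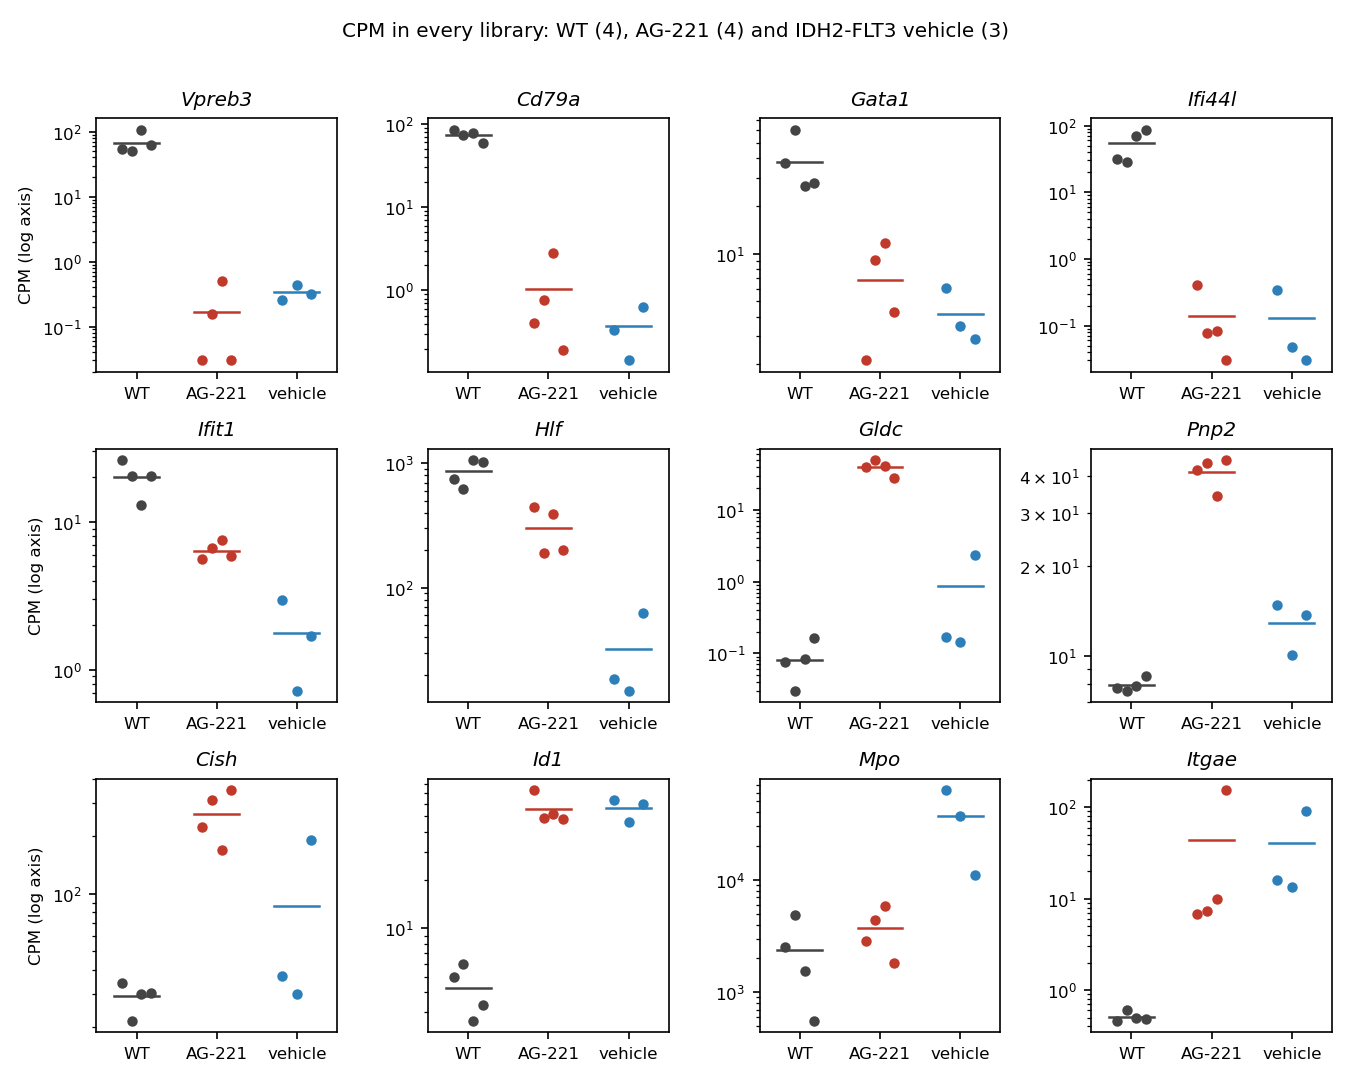
CPM of 12 genes on log axes in each library of WT, AG-221 and IDH2-FLT3 vehicle, with lines at the group means and values of 0 drawn at 0.03 CPM. Vpreb3, Cd79a and Ifi44l lie far below WT in both leukemic groups, Gldc and Pnp2 stand highest with AG-221, and Itgae is highest in AG13, at 153 CPM, with the other 3 treated libraries also above WT.

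Erythroid genes were lower too, by less than with vehicle in the list median. Of 21 erythroid genes tested, of 29 listed, 8 fell, 0 rose and 13 did not pass. The list median was -2.11 against -4.33 with vehicle, where 17 fell and 1 rose. Of all accessions 1.67% were lower with AG-221 and 10.4% with vehicle. In the test of AG-221 against vehicle 7 of the 21 were higher and 1 was lower, against 4.39% and 5.29% of all accessions. The 7 became 1 without V3 or V3-2, 2 without AG12 or AG13, and 3 without AG8. The AG-221 count against WT was 3 without wt3, 4 or 5 without any other single library but wt4 (6), and 19 in limma-voom. Gata1, the transcription factor that directs red cell and megakaryocyte development, read 37.4, 60.3, 26.7 and 28.04 CPM in WT and 2.11, 9.16, 11.7 and 4.299 CPM with AG-221 (log2 difference -2.48 ± 0.499, adjusted p = 0.0071005). All treated libraries lay below all WT libraries, and the vehicle libraries, at 6.07, 3.51 and 2.89 CPM, lay among the treated ones. The red cell membrane gene Ermap read 42.05, 64.02, 61.2 and 24.7 CPM in WT, 0.201, 4.08, 6.06 and 5.67 CPM with AG-221 and 0.169, 0.433 and 1.36 CPM with vehicle (log2 difference -3.58 ± 0.66, adjusted p = 0.00352). Its AG1 value lay in the vehicle range and the other 3 lay above it. Cldn13, a claudin gene of red cell precursors, read 20.1, 20.7, 15.2 and 16.3 CPM in WT, 1.01, 1.46, 3.03 and 4.49 CPM with AG-221 and 0.169, 0.0962 and 0.321 CPM with vehicle. It was lower than WT (log2 difference -2.85 ± 0.501, adjusted p = 0.00251) and higher than vehicle (log2 difference 3.68 ± 0.66, adjusted p = 0.00458), with no overlap among the 3 groups, and neither call ended without any single library. In a fit of AG-221 and vehicle alone, which called 0 genes, Cldn13 did not pass. Gata2, which acts in stem cells and before Gata1, stood at 165, 118, 143 and 95.7 CPM against 209, 197, 227 and 211 CPM and did not pass (log2 difference -0.69 ± 0.29, adjusted p = 0.285), although the groups did not overlap. None of 18 megakaryocyte and platelet genes was called, with a median of -0.51, while 5 fell with vehicle (10.4% of all accessions). At an unadjusted p under 0.05 there were 6 in edgeR, DESeq2 called 1, a fit of the 2 groups alone 5 and limma-voom 12. Rgs18, a G-protein regulator of platelets, read 701 ± 166 against 620.5 ± 117 CPM.

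Of 18 stem cell genes tested, of 28 listed, 1 fell against WT with AG-221 and 0 rose, while with vehicle 11 fell and 1 rose, against 1.67% and 10.4% of all accessions lower. Between AG-221 and WT, 2 were called without AG8, 5 in a fit of the 2 groups alone and 12 in limma-voom. The list median was -0.802 with AG-221 and -2.79 with vehicle. With AG-221 6 of the 18 were higher than with vehicle and 0 were lower, against 4.39% and 5.29% of all accessions. The 6 became 3 without V3 or V3-2 and 11 without V9. By library, the list medians relative to the WT mean were -0.91, -0.85, -1.18 and -0.68 with AG-221 and -3.701, -3.77 and -1.34 with vehicle, so V3 and V3-2 lay furthest from the treated libraries and V9 lay close to them. Hlf, a transcription factor of stem cells, read 742, 626, 1061 and 1019.8 CPM in WT, 442, 189, 388 and 199 CPM with AG-221 and 18.5, 14.9 and 63.2 CPM with vehicle. The 3 groups did not overlap. Against WT it did not pass (log2 difference -1.501 ± 0.43, adjusted p = 0.0679, 95% interval -2.39 to -0.61), though it passed in DESeq2, in both FPKM fits, with no filter, in limma-voom and in a fit of the 2 groups alone. Against vehicle it was higher (log2 difference 3.25 ± 0.52, adjusted p = 0.00277) with and without each library. In a fit of AG-221 and vehicle alone, which called 0 genes, Hlf did not pass. Ndn, which encodes the growth suppressor necdin and is expressed from the paternal allele, was the stem cell gene that fell, from 12.6, 7.63, 15.9 and 15.6 CPM in WT to 0.302, 0.308, 0.0842 and 0 CPM (log2 difference -6.13 ± 1.22, adjusted p = 0.00641). Vehicle stood at 0, 0 and 0.401 CPM, and AG-221 did not differ from it by the test (adjusted p = 0.83999).

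Ndn was also 1 of 2 imprinted genes of 10 that fell, against 1.67% of all accessions. The other, the maternally expressed noncoding RNA Meg3, which has 3 accessions, had 194 counts in WT and 1 with AG-221, a ratio of 172 (95% exact interval 30.5 to 6825; adjusted p = 0.00102). The imprinted list had a median of -0.65 with AG-221 and -1.85 with vehicle, where 6 fell (10.4% of all accessions). Of 15 tested Hox cluster genes, which set stem cell self-renewal, 1 fell with AG-221 (median -0.31) and 7 with vehicle (median -1.997), against 1.67% and 10.4% of all accessions lower. The vehicle count was 2 without V3 and 3 without wt4. Against vehicle 4 were higher with AG-221 (4.39% of all accessions), or 1 without V3 or V3-2. The gene that fell was Hoxa9, which has 2 accessions and read 3.29, 1.66, 2.23 and 4.35 CPM in WT and 0.403, 0.231, 0.758 and 0.0977 CPM with AG-221 (log2 difference -2.91 ± 0.76, adjusted p = 0.0422). Its call ended without wt1, wt2, wt3, wt4, AG1, AG8 or AG13 (adjusted p of up to 0.133). It lay below WT in all 4 treated libraries.

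Interferon-stimulated genes were called in both directions, 3 lower and 1 higher of 53 tested and 61 listed, against 1.67% and 1.04% of all accessions. The list median was -0.23 against 0.0083 over all accessions. Without any single library 3 or 4 were called. With vehicle 16 fell and 3 rose (median -0.44), against 10.4% and 10.1% of all accessions. Of the list 8 were higher with AG-221 than with vehicle, against 4.39% of all accessions. That 8 was 0 without V3-2, 1 without V3, 4 or 5 without an AG-221 library and 13 without V9. Ifi44l, an interferon-induced gene, had the lowest log2 fold change among the genes named by rule. It read 31.6, 28.4, 70.1 and 85.9 CPM in WT and 0.403, 0.07699, 0.0842 and 0 CPM with AG-221 (log2 difference -8.55 ± 0.65, adjusted p = 2.12e-07). Vehicle stood at 0.337, 0.0481 and 0 CPM, and the difference between the leukemic groups was 0.22 ± 1.004 (adjusted p = 0.903, 95% interval -1.87 to 2.31). Its relative Ifi44 was graded instead. It read 74.98, 61.98, 82.8 and 112 CPM in WT, 10.6, 6.31, 8.84 and 14.5 CPM with AG-221 and 2.02, 0.962 and 6.81 CPM with vehicle, lower than WT (log2 difference -3.05 ± 0.45, adjusted p = 5.23e-04) and higher than vehicle (log2 difference 1.64 ± 0.49, adjusted p = 0.0414). The second call ended without AG1, AG12, AG13, V3 or V3-2 (adjusted p of up to 0.199). Ifit1, whose protein binds foreign RNA, lay in the same order at 26.2, 20.5, 13.05 and 20.3, 5.64, 6.62, 7.49 and 5.86 and 2.95, 0.721 and 1.68 CPM, with no overlap among the 3 groups. It fell against WT (log2 difference -1.64 ± 0.37, adjusted p = 0.0142; the call ended without wt1 (adjusted p = 0.0617)) and was higher than vehicle (log2 difference 1.87 ± 0.42, adjusted p = 0.0154; the call ended without V3-2 (adjusted p = 0.0849)). Slfn2, which restrains proliferation of immune cells, rose from 45.3, 40.99, 26.3 and 27.2 to 76.4, 193, 144 and 267 CPM (log2 difference 2.28 ± 0.51, adjusted p = 0.0139). Its call ended without wt3, wt4 or AG13 (adjusted p of up to 0.0698), and its vehicle levels were 234, 112 and 190 CPM.

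The promoter of Ifit1 is shown because, of the called interferon genes, it alone holds the letters of an interferon response element. Its window (RefSeq, chr19:34640639-34640938 of GRCm38.p6, plus strand) holds 2 copies of GAAA separated by 2 bases, read on the other strand, at 2 places in capitals just before the start.
Ifit1: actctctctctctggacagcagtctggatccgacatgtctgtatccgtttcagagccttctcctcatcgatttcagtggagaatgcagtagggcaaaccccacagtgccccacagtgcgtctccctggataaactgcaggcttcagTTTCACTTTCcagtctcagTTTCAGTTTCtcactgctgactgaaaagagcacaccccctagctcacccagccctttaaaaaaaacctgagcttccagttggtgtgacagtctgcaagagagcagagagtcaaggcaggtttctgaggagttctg
These letters occur in 3.44% of all windows and in 22 of the 44 tested interferon genes that have a window. Among the 4 called genes, all with a window, Ifit1 was the 1 that held them, and Ifi44, Ifi44l and Slfn2 did not.

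Among STAT5 targets and cytokine feedback genes, 4 were called higher with AG-221. Of 16 members tested, of 21 listed, 4 rose, 0 fell and 12 did not pass, with a median of 0.54, against 1.04% of all accessions higher. At an unadjusted p under 0.05 there were 8, of which 2 were lower. The number called in either direction was 2 without AG1, AG12 or any single WT library and 4 without AG8 or AG13. With vehicle 3 rose and 1 fell (median 0.16), against 10.1% and 10.4% of all accessions. Cish, a feedback inhibitor induced by cytokine receptors, read 34.2, 21.6, 29.97 and 30.2 CPM in WT and 223, 309.6, 170.4 and 349 CPM with AG-221 (log2 difference 3.18 ± 0.49, adjusted p = 8.21e-04). All treated libraries lay far above WT. The vehicle libraries split, with 37.3 and 29.999 CPM in V3 and V3-2, near WT, and 192 CPM in V9, within the treated range, and AG-221 against vehicle did not pass (log2 difference 1.61 ± 0.51, adjusted p = 0.0517). Id1, which blocks helix-loop-helix transcription factors, read 4.98, 5.96, 2.64 and 3.304 CPM in WT, 72.8, 49.04, 51.9 and 48.3 CPM with AG-221 and 63.7, 46.4 and 59.6 CPM with vehicle (log2 difference 3.71 ± 0.41, adjusted p = 2.49e-05). Both leukemic groups stood about equally high, with a difference of -0.03 ± 0.39 (95% interval -0.84 to 0.79). Socs2, another cytokine feedback inhibitor, with 4 accessions, read 0.2298, 0.0755, 0 and 0.403 CPM in WT and 5.44, 1.001, 1.94 and 1.07 CPM with AG-221 (log2 difference 3.66 ± 0.94, adjusted p = 0.0385). Its call ended without wt1, wt2, wt3, wt4, AG1 or AG12 (adjusted p of up to 0.134). The survival kinase gene Pim2, named as the fourth member called, read 34.6, 23.4, 23.9 and 24.6 CPM in WT, 136, 60.5, 86.3 and 135 CPM with AG-221 and 5.65, 12.1 and 68.2 CPM with vehicle (log2 difference 1.97 ± 0.53, adjusted p = 0.0478), and its call ended without wt1, wt2, wt3, wt4, AG1, AG12 or AG13 (adjusted p of up to 0.156).

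The promoter of Cish is shown because paired STAT sites are known there. Its window (RefSeq, chr9:107296409-107296708 of GRCm38.p6, plus strand) holds the STAT letters TTCNNNGAA at 2 neighbouring places, in capitals.
Cish: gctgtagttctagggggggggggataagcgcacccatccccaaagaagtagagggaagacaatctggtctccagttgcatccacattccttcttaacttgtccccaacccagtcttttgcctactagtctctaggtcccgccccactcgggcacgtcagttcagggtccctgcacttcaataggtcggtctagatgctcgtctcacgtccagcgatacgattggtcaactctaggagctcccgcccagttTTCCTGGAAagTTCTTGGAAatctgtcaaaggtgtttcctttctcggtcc
These letters occur in 8.30% of all windows and in 3 of the 11 tested STAT5 list genes that have a window (Bcl6, Cish and Socs3). Of those 3, Bcl6 and Socs3 did not pass (log2 difference 0.29 ± 0.53, adjusted p = 0.899 and log2 difference 0.83 ± 0.55, adjusted p = 0.596).

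In the MAPK feedback list 9 of 17 fell and 1 rose with vehicle, against 10.4% and 10.1% of all accessions. The vehicle median was -1.39, and 4 fell without V3 and 5 without V3-2. With AG-221 2 of the 17 fell and 0 rose (median -0.799), against 1.67% and 1.04% of all accessions. The 2 were the ERK-induced transcription factors Etv5, from 17.5, 17.9, 31.5 and 19.7 to 0.403, 4.54, 4.97 and 2.34 CPM (log2 difference -2.81 ± 0.66, adjusted p = 0.0207), and Egr1, from 10.2, 8.98, 14.5 and 8.06 to 1.31, 1.85, 0.421 and 2.05 CPM (log2 difference -2.88 ± 0.76, adjusted p = 0.0449). The count of the list was 0 without AG13, wt3 or wt4 and 1 without any other single library. The Etv5 call ended without wt3, wt4 or AG13 (adjusted p of up to 0.07801). The Egr1 call ended without wt1, wt2, wt3, wt4, AG1, AG8, AG12 or AG13 (adjusted p of up to 0.137). Of 38 hematopoietic transcription factors 5 fell and 1 rose, against 1.67% and 1.04% of all accessions. With vehicle 17 fell and 6 rose, against 10.4% and 10.1%. With AG-221, 3 to 5 were called without any single library. Apart from Pax5, Gata1, Egr1 and Id1 these were Id3, an inhibitor of helix-loop-helix factors that went from 17.6 ± 5.91 to 1.46 ± 1.197 CPM (log2 difference -3.59 ± 0.903, adjusted p = 0.0344; the call ended without wt1, wt2, wt3, wt4, AG1, AG8 or AG12 (adjusted p of up to 0.108)), and the erythroid factor Klf1 (log2 difference -2.09 ± 0.53, adjusted p = 0.0375; the call ended without wt1, wt2, wt3, AG1, AG8, AG12 or AG13 (adjusted p of up to 0.116)). Of 20 receptors of cytokines and growth factors 2 rose, Ccr2 and Csf2rb, against 1.04% of all accessions. Of the list 1 was called without AG13 or any single WT library. Csf2rb, the shared beta chain of the IL-3, IL-5 and GM-CSF receptors, read 109, 108, 90.9 and 98.6 CPM in WT, 271, 197, 213 and 299 CPM with AG-221 and 391, 314 and 257 CPM with vehicle (log2 difference 1.27 ± 0.26, adjusted p = 0.00948), so every leukemic library lay above WT.

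In the granulocyte-monocyte progenitor, late neutrophil and monocyte lists, 1, 2 and 3 genes rose against WT with AG-221 and 16, 13 and 15 with vehicle. The late neutrophil median was 1.84 with AG-221 and 2.06 with vehicle, so there the number of calls differed more than the size of the estimates. Of 23 granulocyte-monocyte progenitor genes 1 rose with AG-221 (median 0.77) and 16 with vehicle (median 2.33), against 1.04% and 10.1% of all accessions higher. Without most single libraries the AG-221 count was 0, and it stayed 1 without AG1 or wt2. Against vehicle 7 were lower with AG-221 (5.29% of all accessions), with 1 without V3, 2 without V3-2, 4 without AG1, AG8 or AG13 and 14 without V9. Mpo, the myeloperoxidase of primary granules, read 2552, 4907, 1550.5 and 557 CPM in WT, 2877, 4434, 5885 and 1806 CPM with AG-221 and 62762, 37307 and 11046 CPM with vehicle. The AG-221 libraries overlapped WT (log2 difference 0.65 ± 0.58, adjusted p = 0.721) and lay below every vehicle library (log2 difference -3.304 ± 0.65, adjusted p = 0.00867; the call ended without V3 (adjusted p = 0.0563)). The gene that rose was Prss57, a granule serine protease, at 159.9, 258, 301 and 214 CPM against 108, 147, 60.4 and 70.4 CPM (log2 difference 1.28 ± 0.33, adjusted p = 0.0422), and its call ended without wt1, wt3, wt4, AG8, AG12 or AG13 (adjusted p of up to 0.172). Of 21 late neutrophil genes 2 rose with AG-221 (median 1.84) and 13 with vehicle (median 2.06; 7 without V3). All 21 estimates lay above 0 with AG-221, 13 had an unadjusted p under 0.05, and 2 were lower than with vehicle. Without single libraries 1 was called, or 3 without AG1. limma-voom with library weights called 15 progenitor and 17 late neutrophil genes between AG-221 and WT, so these counts depend on the tool. Padi4, which citrullinates histones in neutrophils, read 83.6, 86.2, 94.5 and 89.2 CPM in WT, 196, 215, 183 and 139 CPM with AG-221 and 165, 131 and 163 CPM with vehicle (log2 difference 1.05 ± 0.21, adjusted p = 0.00577), and Chil3, a secreted lectin, read 68.9, 129, 50.9 and 35.1 CPM in WT and 82.8, 415, 1829 and 1130.1 CPM with AG-221 (log2 difference 3.61 ± 0.95, adjusted p = 0.0458). The Chil3 groups overlapped and its call ended without wt1, wt2, wt3, wt4, AG8, AG12 or AG13 (adjusted p of up to 0.172). The treated libraries differed among themselves in this list. Relative to the WT mean its median was -0.32, 0.77, 2.42 and 1.98 in AG1, AG8, AG12 and AG13.

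Of 17 monocyte genes 3 rose (median 1.22), against 15 with vehicle (median 2.78), against 1.04% and 10.1% of all accessions higher. Against vehicle 6 were lower with AG-221 (5.29% of all accessions), or 2 without V3 and 4 without V3-2, AG1 or AG12. The extracellular matrix gene Emilin2 read 28.8, 35.8, 18.2 and 11.1 CPM in WT and 151, 152, 133 and 135 CPM with AG-221 (log2 difference 2.603 ± 0.45, adjusted p = 0.00216), with treated libraries close together. Its vehicle levels were 115, 420 and 204 CPM. The macrophage antigen gene Adgre1 (F4/80) read 2.298, 2.26, 2.56 and 1.85 CPM in WT, 9.56, 8.7002, 9.93 and 16.5 CPM with AG-221 and 116, 75.2 and 20.2 CPM with vehicle (log2 difference 2.31 ± 0.55, adjusted p = 0.0229; the call ended without wt1, wt2, wt3, wt4 or AG13 (adjusted p of up to 0.0904)). Ccr2, the receptor that draws monocytes to tissue, read 80.8, 121, 148 and 643 CPM with AG-221 against 66.9, 92.3, 40.95 and 48.03 CPM (log2 difference 1.999 ± 0.54, adjusted p = 0.0479; the call ended without wt1, wt2, wt3, wt4 or AG13 (adjusted p of up to 0.374)). Without AG13 or any single WT library, 1 monocyte gene was called. In AG13 the monocyte list stood at 1.98 relative to the WT mean, against -0.14 to 0.37 in the other 3, and the MHC class II list at 2.19 against -1.103 to 0.24. Its dendritic list summed to 3759 CPM, against 949 to 1135 CPM in the others. In the vehicle library V9 the monocyte list stood at 2.07 and the MHC class II list at 2.06. The dendritic list summed to 3008 CPM in V9, against 1048 CPM in V3 and 987 CPM in V3-2. The part of dendritic or monocytic cells in AG13 was not tested.

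**Figure D3:**
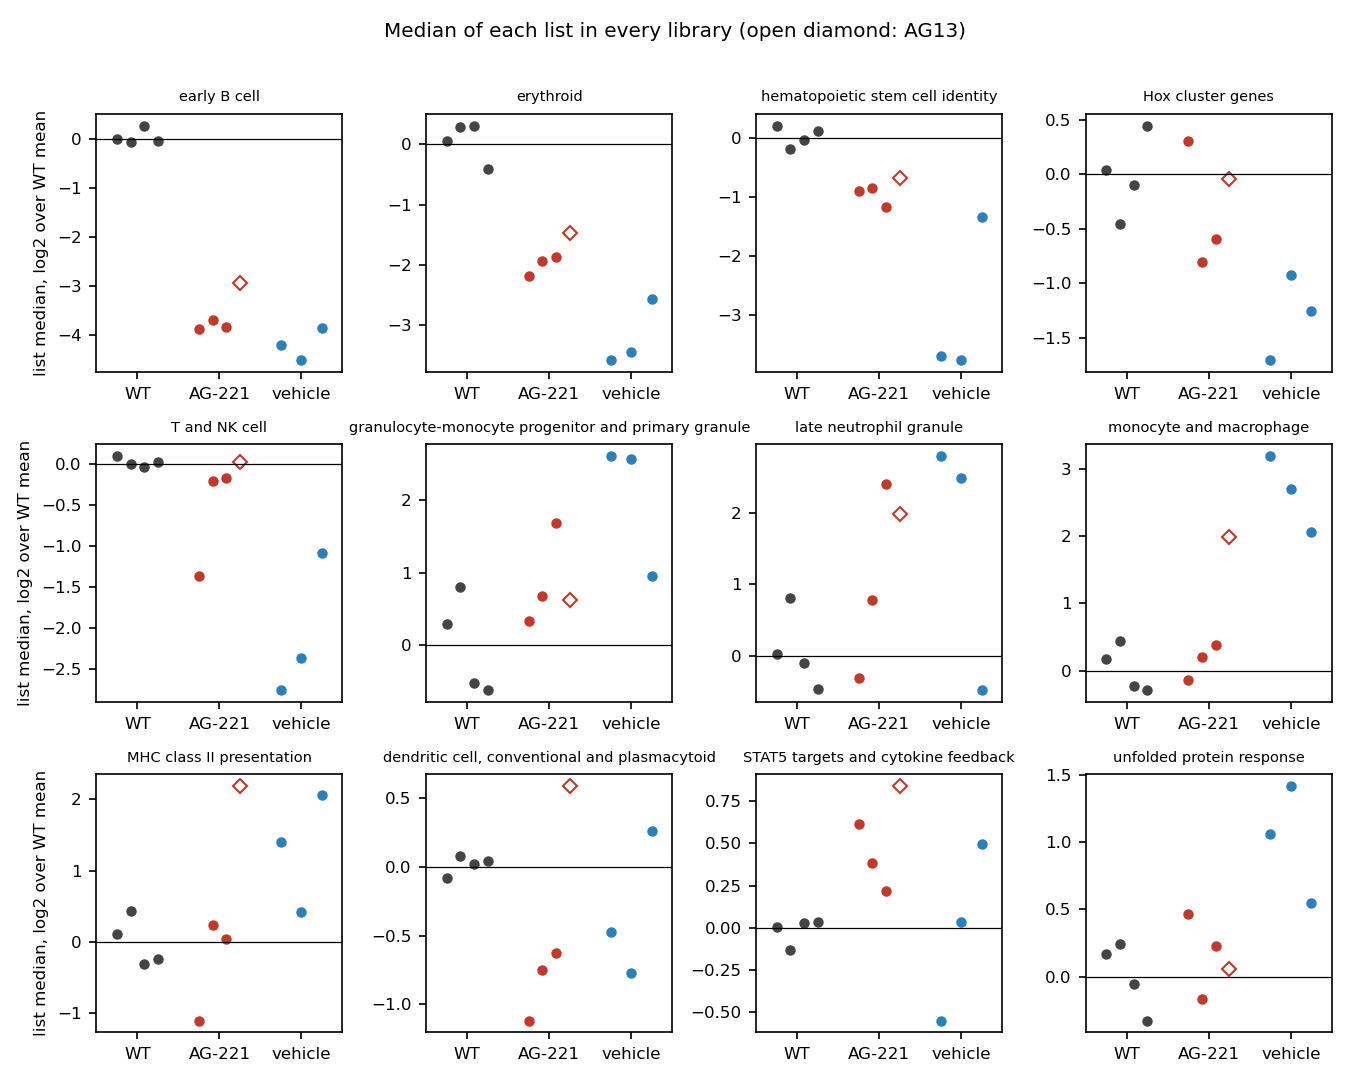
Median over the tested members of 12 gene lists of the log2 level (CPM + 0.5) relative to the WT mean, for each library of WT, AG-221 and IDH2-FLT3 vehicle, with AG13 as an open diamond. B-cell genes lie between -3.87 and -2.94 in the 4 AG-221 libraries, stem cell genes lie between WT and V3 or V3-2, and AG13 is the highest AG-221 library for monocyte, MHC class II and dendritic genes.

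Of 11 MHC class II genes 1 rose, the lysosomal reductase Ifi30, at 47.01, 36.1, 60.4 and 309 CPM against 34.8, 38.7, 24.4 and 20.2 CPM (log2 difference 1.94 ± 0.51, adjusted p = 0.0446; the call ended without wt1, wt2, wt3, wt4 or AG13 (adjusted p of up to 0.395)). Its AG-221 and WT libraries overlapped. For this list and the next ones, the shares of all accessions were 1.04% higher and 1.67% lower. Of 20 dendritic cell genes 2 fell and 0 rose (median -0.04). Those were Spib, a transcription factor of plasmacytoid dendritic cells and B cells, from 17.999, 18.3, 26.1 and 22.1 to 0.705, 0.539, 1.01 and 4.01 CPM (log2 difference -3.76 ± 0.800, adjusted p = 0.0109), and Cox6a2, a cytochrome oxidase subunit found in plasmacytoid dendritic cells, from 31.4, 31.1, 33.7 and 27.96 to 0.503, 0.616, 0.421 and 1.27 CPM (log2 difference -5.46 ± 0.68, adjusted p = 9.09e-05). Without AG1 2 fell and 2 rose, and without AG13 4 fell. Of 17 mast cell, basophil and eosinophil genes 2 rose, the basophil protease Mcpt8, from 66.9 ± 13.5 to 192 ± 20.3 CPM (log2 difference 1.52 ± 0.37, adjusted p = 0.0255; the call ended without wt1, wt3, wt4, AG8 or AG13 (adjusted p of up to 0.1097)), and the eosinophil ribonuclease Ear2, from 0.371 ± 0.122 to 3.58 ± 1.95 CPM (log2 difference 3.23 ± 0.64, adjusted p = 0.00603). The mast cell list count was 1 without AG8, wt1, wt3 or wt4. Ear2 belongs to a family of near-identical copies, so its reads may be shared. Of 17 chemokines and cytokines 2 rose, Ccl22 and Ccl6. Of these 0 were called without AG13, wt3 or wt4 and 1 without wt1 or wt2. Ccl6, a macrophage chemokine, read 49.6, 52.4, 77.4 and 279 CPM against 23.1, 23.4, 16.6 and 30.4 CPM (log2 difference 2.29 ± 0.58, adjusted p = 0.0354; the call ended without wt1, wt2, wt3, wt4 or AG13 (adjusted p of up to 0.221)), and Ccl22, made by dendritic cells, read 0.201, 2.31, 1.18 and 35.1 CPM against 0, 0.302, 0 and 0.0806 CPM (log2 difference 6.497 ± 1.38, adjusted p = 0.0109; the call ended without wt3, wt4 or AG13 (adjusted p of up to 0.0901)).

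Of 4 tested genes in the list of LSK surface markers 1 rose, Cd48, against 1.04% of all accessions. Multipotent and restricted progenitors carry CD48 and stem cells lack it, and the lin-Sca+cKit+ sort does not name it. Cd48 read 412, 427, 293 and 323 CPM in WT, 1051, 2139, 1342 and 1709 CPM with AG-221 and 729, 278 and 1296 CPM with vehicle (log2 difference 2.101 ± 0.42, adjusted p = 0.00619). Every treated library lay above every WT library, and against vehicle the difference did not pass (adjusted p = 0.128). Slamf1 (CD150), a stem cell receptor, read 2.795 ± 2.57 against 8.93 ± 2.31 CPM and did not pass (log2 difference -1.66 ± 0.66, adjusted p = 0.249).

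Several genes at near 0 to 8.54 CPM in WT cells stood higher in all 4 AG-221 libraries. Gldc, the glycine-cleaving decarboxylase of mitochondria, read 0.0766, 0, 0.0826 and 0.161 CPM in WT and 39.5, 49.6, 41.7 and 27.9 CPM with AG-221 (log2 difference 8.81 ± 1.03, adjusted p = 4.12e-05). The vehicle libraries read 0.169, 0.144 and 2.33 CPM, so Gldc was also higher than in vehicle (log2 difference 5.53 ± 0.94, adjusted p = 0.00342), and neither call ended without any single library. Pnp2, a purine nucleoside phosphorylase, did the same at a smaller size: it read 7.81, 7.63, 7.93 and 8.54 CPM in WT, 41.98, 44.1, 34.2 and 45.2 CPM with AG-221 and 14.8, 10.05 and 13.6 CPM with vehicle, above WT (log2 difference 2.37 ± 0.27, adjusted p = 3.09e-05) and above vehicle (log2 difference 1.69 ± 0.29, adjusted p = 0.00342). Pnp2 lies beside its close relative Pnp, so reads may be shared. The calls of Gldc and Pnp2 against vehicle did not stand in a fit of those 2 groups alone, which called 0 genes. Slc17a8, the vesicular glutamate transporter VGLUT3, read 2.45, 2.26, 1.82 and 2.26 CPM in WT, 119, 52.7, 119 and 221 CPM with AG-221 and 0.928, 0.481 and 30.8 CPM with vehicle (log2 difference 5.86 ± 1.12, adjusted p = 0.00444), and its call against vehicle (log2 difference 3.58 ± 1.12, adjusted p = 0.04702) ended without AG1, AG8, AG12, AG13, V3 or V3-2 (adjusted p of up to 0.161).

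Gdf10, a secreted factor of the TGF-beta family, had 1 count in all WT libraries and read 29.6, 9.24, 17.5 and 33.998 CPM with AG-221, a ratio of 1095 (95% exact interval 196 to 43281; adjusted p = 0.00207). The secreted matricellular gene Ccn3 read 0.306, 0, 0.165 and 0.161 CPM in WT and 97.9, 23.02, 40.7 and 37.7 CPM with AG-221 (log2 difference 8.22 ± 0.81, adjusted p = 1.00e-05), and the adhesion molecule Ncam2 read 0.0766, 0.0755, 0.3303 and 0 CPM and 29.9, 9.78, 17.3 and 19.5 CPM (log2 difference 7.22 ± 1.27, adjusted p = 0.00251). Vehicle levels of these 3 were lower in V3 than in V9, at 0.0843 and 14.8 CPM for Gdf10, and none of the 3 differed from vehicle by the test. Cox4i2, a hypoxia-linked isoform of a cytochrome oxidase subunit, rose from 4.07 ± 1.37 to 54.3 ± 15.3 CPM (log2 difference 3.73 ± 0.53, adjusted p = 3.54e-04). It was also above WT with vehicle, at 21.2, 12.0 and 85.5 CPM. Perp and Pmaip1, effectors of cell death, were the 2 of 15 p53 targets that rose, against 1.04% of all accessions (log2 difference 2.72 ± 0.65, adjusted p = 0.0251, and log2 difference 2.81 ± 0.51, adjusted p = 0.00316). Of the list 1 was called without AG12 or any single WT library, and 2 rose and 1 fell without AG13. The Perp call ended without wt1, wt2, wt3, wt4 or AG12 (adjusted p of up to 0.1097).

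Other large increases were highest in AG13. Itgae, the integrin chain CD103 of dendritic and T cells, was the 1 of 15 integrin genes that rose, against 1.04% of all accessions. It read 6.85, 7.24, 10.02 and 153 CPM with AG-221 and 0.4596, 0.604, 0.495 and 0.483 CPM in WT (log2 difference 6.41 ± 1.01, adjusted p = 0.00102). All 4 treated libraries lay above WT. Bcl2a1a, a survival gene with near-identical copies, read 1.91, 3.77, 4.38 and 76.7 CPM against 0.383, 0.453, 0.495 and 0.242 CPM (log2 difference 5.75 ± 1.08, adjusted p = 0.00404). Neither the Itgae nor the Bcl2a1a call ended without any single library, AG13 included. Vehicle levels also lay above WT, at 16.2, 13.4 and 91.6 CPM for Itgae and 6.41, 3.70 and 29.3 CPM for Bcl2a1a. Il12b, the p40 chain of interleukin 12, read 0.302, 1.08, 0.589 and 40.7 CPM, against 3 counts in all WT libraries (adjusted p = 0.0135; the call ended without wt1, wt2, wt3 or AG13 (adjusted p of up to 0.191)). The lowest genes outside the lists were low in all AG-221 libraries. They were Slc16a11, a monocarboxylate transporter, from 43.7 ± 22.4 to 0.2902 ± 0.483 CPM (log2 difference -7.26 ± 0.93, adjusted p = 1.10e-04), Chst3, a chondroitin sulfotransferase, from 11.1 ± 2.34 to 0.0883 ± 0.119 CPM (log2 difference -6.82 ± 0.92, adjusted p = 2.33e-04), and Ccnb1ip1, a cyclin B1 interacting ubiquitin ligase, from 16.3 ± 12.97 to 0.165 ± 0.106 CPM (log2 difference -6.604 ± 0.66, adjusted p = 1.00e-05). None of these 3 calls ended without any single library. Vehicle levels were low as well, at 0.337, 0.769 and 1.04 CPM for Slc16a11. They were 0.253, 0.144 and 0.401 CPM for Chst3 and 0, 0.0481 and 0 CPM for Ccnb1ip1.

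By the naming rule, the 5 genes with the smallest p against vehicle in each direction, among genes called against both groups, separate AG-221 from WT and vehicle at once. A fit of AG-221 and vehicle alone called 0 genes, so no call against vehicle stood there. The genes above vehicle were Gldc, Pnp2 and Cldn13, given above, with Bgn and Zfp532. Bgn, the proteoglycan biglycan, read 59.4, 41.4, 47.5 and 39.3 CPM in WT, 9.26, 11.6, 16.1 and 8.597 CPM with AG-221 and 1.26, 0.337 and 1.52 CPM with vehicle, and lay between the other groups without overlap (log2 difference -2.04 ± 0.403, adjusted p = 0.00603 against WT, and log2 difference 3.49 ± 0.51, adjusted p = 0.00267 against vehicle). Zfp532, a zinc finger gene, read 24.1, 19.5, 23.4 and 25.7, 8.76, 7.55, 6.99 and 6.94 and 0.675, 1.11 and 2.41 CPM in the same order (log2 difference -1.62 ± 0.32, adjusted p = 0.00681, and log2 difference 2.44 ± 0.39, adjusted p = 0.00277). Those below vehicle were Adgre1 (log2 difference -2.66 ± 0.56, adjusted p = 0.0109; the call ended without V3 (adjusted p = 0.0706)) and 4 genes that lay below both groups. Cdr2, an antigen gene of paraneoplastic disease in humans, read 1.91, 2.11, 1.98 and 1.37 CPM in WT, 0, 0.154, 0.0842 and 0.0977 CPM with AG-221 and 3.204, 6.44 and 1.44 CPM with vehicle (log2 difference -4.26 ± 0.798, adjusted p = 0.00407 against WT, and log2 difference -5.26 ± 0.82, adjusted p = 0.00277 against vehicle). The potassium channel modifier Kcng1 read 3.37, 5.44, 3.47 and 1.13, 0, 0.308, 0.168 and 0.0977 and 4.38, 9.33 and 2.81 CPM (log2 difference -4.39 ± 0.99, adjusted p = 0.0151, and log2 difference -5.11 ± 1.02, adjusted p = 0.00914), and its call against WT ended without AG13 (adjusted p = 0.0533). For Cdr2 and Kcng1 the test of vehicle against WT did not pass (adjusted p = 0.278 and 0.558). Camsap2, which stabilises microtubule minus ends, read 2.21, 1.85, 0.926 and 4.59 CPM with AG-221 against 14.7, 15.2, 24.1 and 11.4 CPM in WT (log2 difference -2.77 ± 0.53, adjusted p = 0.00429), and its call against vehicle ended without V3 or V3-2 (adjusted p of up to 0.0726). Alpk1, a kinase that senses bacterial sugars, read 8.46, 6.16, 8.08 and 9.18 CPM against 25.4, 20.6, 37.4 and 72.8 CPM (log2 difference -2.29 ± 0.48, adjusted p = 0.00969; the call ended without wt4 (adjusted p = 0.0678), and that against vehicle ended without V3 or V3-2 (adjusted p of up to 0.128)).

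**Figure D4:**
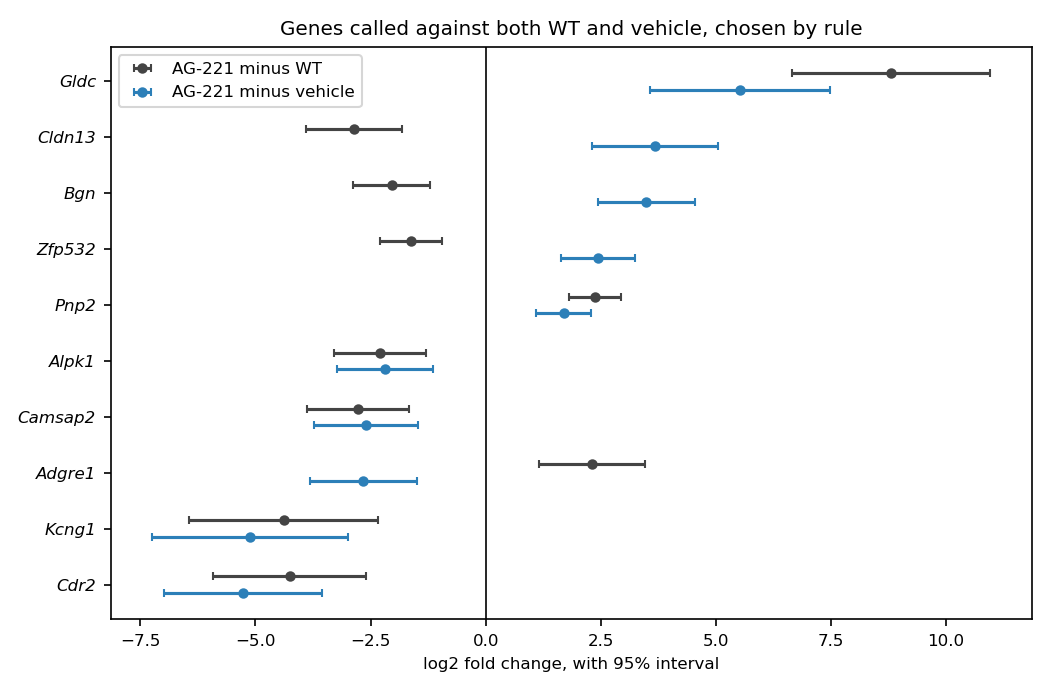
Log2 fold change with its 95% interval of AG-221 minus WT (black) and AG-221 minus vehicle (blue) for the 10 genes named by rule among those called in both comparisons. Gldc and Pnp2 are higher than both groups, Cdr2, Kcng1, Camsap2 and Alpk1 lower than both, and Cldn13, Bgn, Zfp532 and Adgre1 lie between them.

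Lists of growth and metabolism had no called member. None was called among 33 S phase, 31 mitotic, 26 unfolded protein, 26 glycolysis and hypoxia, 34 respiratory chain, 48 ribosomal protein, 17 MHC class I, 9 heme synthesis and 17 DNA methylation and IDH genes, by edgeR, although 1 respiratory chain gene was called without AG1. At an unadjusted p under 0.05 they held 2, 4, 0, 3, 2, 4, 1, 1 and 0 members in that order, against 1524 of all accessions. DESeq2 called 1 mitotic gene and none of the others, and limma-voom called 5, 11, 2, 5, 7, 3, 2, 2 and 1. With vehicle 9 mitotic genes rose (3 without V3, 4 without V3-2 and 6 without wt1), and 11 unfolded protein genes rose and 1 fell. Of all accessions 10.1% were higher and 10.4% lower with vehicle. The unfolded protein list had a median of 0.13 with AG-221 and 1.097 with vehicle. Compared with 5.29% of all accessions, 7 of its 26 members were lower with AG-221 than with vehicle. That number was 1 without V3-2, 2 without V3, 3 or 4 without an AG-221 library and 10 without V9. The chaperone Calr read 1147, 1441, 976 and 668 CPM in WT, 2093, 1403, 1701 and 1412 CPM with AG-221 and 3124, 4041 and 1982 CPM with vehicle (log2 difference 0.64 ± 0.32, adjusted p = 0.417 against WT), and the groups of AG-221 and WT overlapped. Mki67 and Top2a, markers of dividing cells, differed from WT by -0.11 ± 0.38 and 0.27 ± 0.26 on the log2 scale (95% intervals -0.898 to 0.67 and -0.26 to 0.81). Ribosomal protein genes had a median of 0.46 with AG-221, and 14 of 48 did not overlap between the groups, against 15.8% of all accessions. Tet2, whose enzyme 2-hydroxyglutarate inhibits, read 152, 90.2, 116 and 161 CPM against 121, 117, 137 and 145 CPM (log2 difference -0.004 ± 0.31, adjusted p = 0.998, 95% interval -0.65 to 0.64).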

How the data were processed

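PolyA RNA of sorted lin-Sca+cKit+ cells was sequenced. Per the submitters' processing notes, the authors used STAR 2.4.0f1, the build mm9 and featureCounts (Subread 1.4.5-p1). From these they deposited raw counts for each RefSeq accession. They also deposited FPKM, which entered 2 alternative fits here. Whether strand was used is not given in the sources used here. Headers put each column in its group.

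Symbols for 33485 of 33862 accessions came from RefSeq and for 188 from GENCODE, and the other 189 held 3.47% of counts. Gene coordinates are not printed because the RefSeq tables use another build. Genes with several accessions may be undercounted. A gene is represented by its accession with the highest mean CPM.

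Counts were fitted with edgeR 4.0.16 in R 4.3.3: low accessions were dropped by filterByExpr, libraries were scaled by TMM factors of 0.761 to 1.22, and means of 5 groups were fitted by quasi-likelihood to 19 libraries, with 14 residual degrees of freedom and a biological coefficient of variation of 42.9%. In simulated data for AG-221 minus WT (11532 genes, 200 of them changed) the fit called 22.4% of 2-fold, 70.1% of 4-fold and 92.4% of 8-fold changes, and 3 of 11332 unchanged genes. CPM divides counts by the TMM-scaled total. Exact intervals for genes of few counts cover counting error only. Over 171 pairs of libraries the lowest chi-square per gene was 15.9, so no pair agreed within sampling noise.

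The groups and gene lists were chosen with earlier results of these data known. Named genes were fixed targets, the 10 largest called changes each way among genes of at least 5 CPM whose groups did not overlap, up to 3 called members per direction of each list (or the 2 of highest CPM), and 5 genes each way called against both WT and vehicle. Genes that are predicted, sex-specific or of small RNAs were not named. The rule gave 91 genes, of which some are not reported here. A few others are named where a count of 5 or fewer members is spelled out, as contrast, or as members that did not pass, chosen after their values were seen. Lists are described by counts and medians beside those of all accessions, with no set test. Alternatives were RLE factors, other filters, the compared groups alone, DESeq2 1.42.0, limma 3.58.1 (voom, and trend on log2 FPKM) and each library left out.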

Additional observations from a re-analysis of the deposited data

Results flagged for a closer look

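Within the 4 AG-221 libraries, AG13 lay apart from the other 3 for 11 of the genes named, by the ratio of the gap to the whole range. It was high for the dendritic and inflammatory genes Il12b (40.7 CPM, next 1.08), Itgae (153 CPM, next 10.02) and Ccl22 (35.1 CPM, next 2.31), and for Ccl6 (279 CPM, next 77.4) and Ccr2 (643 CPM, next 148). It was high for Bcl2a1a (76.7 CPM, next 4.38), Adgre1 (16.5 CPM, next 9.93), Spib (4.01 CPM, next 1.01), Ifi30 (309 CPM, next 60.4) and Pmaip1 (30.1 CPM, next 11.3). It was low for the glycolytic enzyme gene Tpi1 (201 CPM, next 275). AG1 was high for Id1 (72.8 CPM, next 51.9).

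Within WT, wt1 was high for Thy1 (15.3 CPM, next 9.67), wt3 was high for Etv5 (31.5 CPM, next 19.7) and wt4 was low for B2m (4771 CPM, next 6192). Chance flags about 1 in 20 groups of 4 for any one gene, and genes of 1 library are not independent of each other.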

How the results depend on the processing

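The AG-221 minus WT count of 321 was 823 with the 2 groups alone, 589 in DESeq2, 2131 in limma-voom, 655 from log2(FPKM + 1) and 508 from log2(FPKM + 0.1), and 170 to 289 with each library left out (189 without wt1, 170 without wt3, 179 without wt4). The share of calls that were higher was 38.3%, against 16.9% and 20.3% in the FPKM fits, whose medians over all genes were -0.12 and -0.19, 48.3% with no filter and 44.1% with the 2 groups alone. The vehicle minus WT count of 2428 was 1261 to 2778 with each library left out (1261 without V3, 1486 without V3-2, 1567 without wt3, 1477 without wt4). The AG-221 minus vehicle count of 1145 was 0 with the 2 groups alone, 2108 in DESeq2, 1832 in limma-voom and 97 to 2252 with each library left out (97 without V3, 110 without V3-2, 2252 without V9, 572 to 748 without an AG-221 library). RLE factors and both filters kept each total within 1.5 times, though with no filter 211 genes were higher, against 123. The causes were not tested. No named gene reversed under the alternatives run, and of 89 tested named genes 72 to 85 kept their side of the threshold with each library left out. No paired analysis was possible because the AG-221 and vehicle columns show a group and not the replicate number of the labels.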
